A study of Mus musculus with 6 samples.

Results

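The genes described are 10 long noncoding RNAs of mouse, Malat1, Neat1, Miat, Rmst, Gas5, Snhg1, Snhg11, Snhg12, Pvt1 and Epb41l4aos, read in GLUTag cells. GLUTag is a mouse enteroendocrine cell line that secretes glucagon-like peptide 1 and serves as a model of the intestinal L-cell. The members were chosen by symbol, as the rows of the gene count table whose Ensembl identifiers carry these names, and all 10 were found among 54281 rows. They were grouped as abundant long noncoding RNAs of the nucleus, of neurons and of snoRNA host genes. The name holds for part of them, since the mean level reached 100 CPM in 4 of the 10 and 10 CPM in 6, and it lay below 2 CPM in 3. CPM is the count of a gene per 1000000 counts of its library.

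Six-well cultures of GLUTag cells gave 6 libraries of a single condition, without any treatment. The 3 libraries of plate 1 came from passage 23 and the 3 of plate 2 from passage 27, and all were grown for 48 h in medium with 1 g/L glucose and 10% FBS on Matrigel. Messenger RNA was captured on oligo(dT) beads and read from its 3′ end. Each captured molecule with a poly(A) tail thus gives about the same number of reads whatever its length. For such RNAs CPM can be compared between genes without dividing by length. For RNAs that lack the tail in some or all forms, CPM describes only what was captured. Orders, ranks and tests between genes below are therefore of captured RNA, not of all molecules in the cell. Plate and passage coincide and cannot be told apart, and nothing in the labels says that the wells of a plate were separate cultures, so p-values measure the spread between these wells.

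Long noncoding RNAs are transcripts that are not known to be read into protein, many of them spliced and polyadenylated like mRNAs. Malat1 stays in the nucleus at splicing speckles and Neat1 builds paraspeckles, which are bodies of RNA and RNA-binding proteins. The Snhg genes and Gas5 carry small nucleolar RNAs (snoRNAs) in their introns, which guide the modification of ribosomal RNA, while the spliced host transcript is left over and is often removed by nonsense-mediated decay. Miat and Rmst are best known from neurons and neural progenitors, and Pvt1 lies beside Myc.

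Library totals lay between 21399987 and 36488198 counts, and 3 counts, the floor below which a gene is taken as not detected, correspond to between 0.0822 and 0.140 CPM. The 3 plate 2 columns could not be tied to single replicates and are called by their total, as the libraries of lowest, middle and highest total. The library of middle total stood apart from the other 2 of its plate, as leaving it out raised the number of genes called between the plates from 29 to 1911. All 9 enteroendocrine markers examined were present, with a median of 517 CPM, including Gcg, the gene of proglucagon, at 3416 ± 771 CPM (SD, n = 6). Of the 4 neuronal markers, 3 had a mean of at least 1 CPM in these cells, led by Map2 at 241 ± 21.5 CPM. The summed level of the 3 blood markers lay between 0 and 0.392 CPM in a library. Of 5 enterocyte, 4 fibroblast and 2 goblet cell markers, 1 of each had a mean of at least 1 CPM, namely Vil1 at 2.13 CPM, Col1a2 at 5.87 CPM and Tff3 at 37.8 CPM, while Apob, Fabp2 and Col3a1 had no count.

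The 3′ ends are shown first because these ends are what the libraries read. For each gene the longest transcript of the basic GENCODE set that holds a polyadenylation signal (AATAAA or ATTAAA, on the transcript strand) in its last 50 bases was taken. Such a transcript existed for 10 of the 10 genes, with AATAAA in 8 and ATTAAA in 2, and the signal ended between 13 and 18 bases before the annotated end. Over all basic transcripts of the 10 genes, 25 of 36 (69.4%) held a signal in that window, against 46.3% of 74860 basic transcripts of the whole annotation, small RNAs left out. A match of these letters is a description of the sequence and was not tested as a site of use. The last 100 bases of the transcripts of the 5 genes that the results turn on are printed 5′ to 3′ with the signal in capitals.
Malat1-201, chr19:5795690-5795789, minus strand: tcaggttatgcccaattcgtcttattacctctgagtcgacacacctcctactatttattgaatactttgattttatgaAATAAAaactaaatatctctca
Gas5-203, chr1:161038252-161038535, plus strand, across an intron: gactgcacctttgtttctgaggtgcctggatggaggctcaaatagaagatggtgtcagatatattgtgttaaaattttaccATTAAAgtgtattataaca
Neat1-202, chr19:5842307-5842406, minus strand: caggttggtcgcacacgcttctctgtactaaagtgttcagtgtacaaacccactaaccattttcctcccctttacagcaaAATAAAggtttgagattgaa
Snhg1-207, chr19:8726344-8726443, plus strand: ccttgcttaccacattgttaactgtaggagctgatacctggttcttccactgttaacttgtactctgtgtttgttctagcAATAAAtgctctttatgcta
Miat-205, chr5:112213228-112213327, minus strand: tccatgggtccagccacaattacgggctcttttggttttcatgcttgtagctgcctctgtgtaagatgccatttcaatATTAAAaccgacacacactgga

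Malat1 and the long form of Neat1 are known to end without a poly(A) tail in their mature form, where RNase P cuts the transcript and a stretch of A coded in the genome is held in a triple helix. In Malat1-201 the longest run of A held 12 bases and stood 298 bases before the annotated end, and it is printed in capitals with 24 bases on each side. The annotated long form, Neat1-201, has 20771 bases against 3004 for Neat1-202. Its end held neither signal and is shown in lower case throughout, with A-rich letters at its close. The table holds 1 value per gene, so reads from these alternative ends were not separated. The levels of Malat1 and Neat1 given below are thus those of the RNA captured by oligo(dT).
Malat1-201, run of A, chr19:5795964-5796023, minus strand: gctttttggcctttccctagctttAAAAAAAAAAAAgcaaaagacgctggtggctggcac
Neat1-201, end, chr19:5824708-5824807, minus strand: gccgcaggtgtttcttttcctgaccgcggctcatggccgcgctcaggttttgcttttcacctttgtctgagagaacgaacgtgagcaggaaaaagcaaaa

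Malat1 was the most abundant of the 10 RNAs as read in these libraries. It is a single exon at chr19:5795690-5802672 on the minus strand of GRCm38 (ENSMUSG00000092341). Its level in plate 1 was 555.0 CPM in replicate 1, 448.9 CPM in replicate 2 and 888.6 CPM in replicate 3. In plate 2 it was 770.0 CPM in the library of lowest total, 765.1 CPM in that of middle total and 754.1 CPM in that of highest total. Replicate 3 of plate 1 was the highest library and replicates 1 and 2 the lowest, so the plates overlapped. The mean was 697 ± 162 CPM (SD, n = 6) from 10160 to 27516 counts a library, and the SD was 229 CPM within plate 1 and 8.15 CPM within plate 2. Malat1 ranked 185th among all genes and 5th among 12961 genes of a long noncoding type, and it made up 56.7 ± 4.02% of the summed counts of the 10 genes.

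Neat1 lies 22035 bases from Malat1 on the same strand (chr19:5824708-5845478, ENSMUSG00000092274) and was read at a lower level. It stood at 109.4, 101.1 and 158.0 CPM in replicates 1, 2 and 3 of plate 1. In plate 2 it stood at 166.3, 253.0 and 201.8 CPM in the libraries of lowest, middle and highest total. Each plate 2 library lay above each plate 1 library, by a narrow margin between replicate 3 of plate 1 and the lowest library of plate 2, which was so for 35.2% of the 15669 genes tested. The mean was 165 ± 57.1 CPM (SD, n = 6). Malat1 exceeded Neat1 in 6 of 6 libraries, by between 3.02-fold and 5.62-fold. On the log2(CPM + 1) scale the difference was 2.11 ± 0.32 (SD, n = 6; exact two-sided sign-flip permutation test, p = 0.03125, the smallest that 6 libraries allow).

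The mRNAs of the listed proteins of the bodies that these RNAs occupy were all detected. Of the paraspeckle proteins, the mRNA of the RNA-binding protein Rbm14 was the lowest at 30.7 ± 6.87 CPM. The core pair Nono and Sfpq stood at 353 ± 46.1 and 308 ± 59.1 CPM (SD, n = 6). The mRNAs of 5 nuclear speckle proteins lay closer together, from 261 ± 58.7 CPM for the scaffold Srrm2 to 317 ± 38.0 CPM for Son. The transcript of Malat1 was thus read at a higher level than each of these 5 mRNAs, and that of Neat1 at a lower mean level than each of them.

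**Figure D1:**
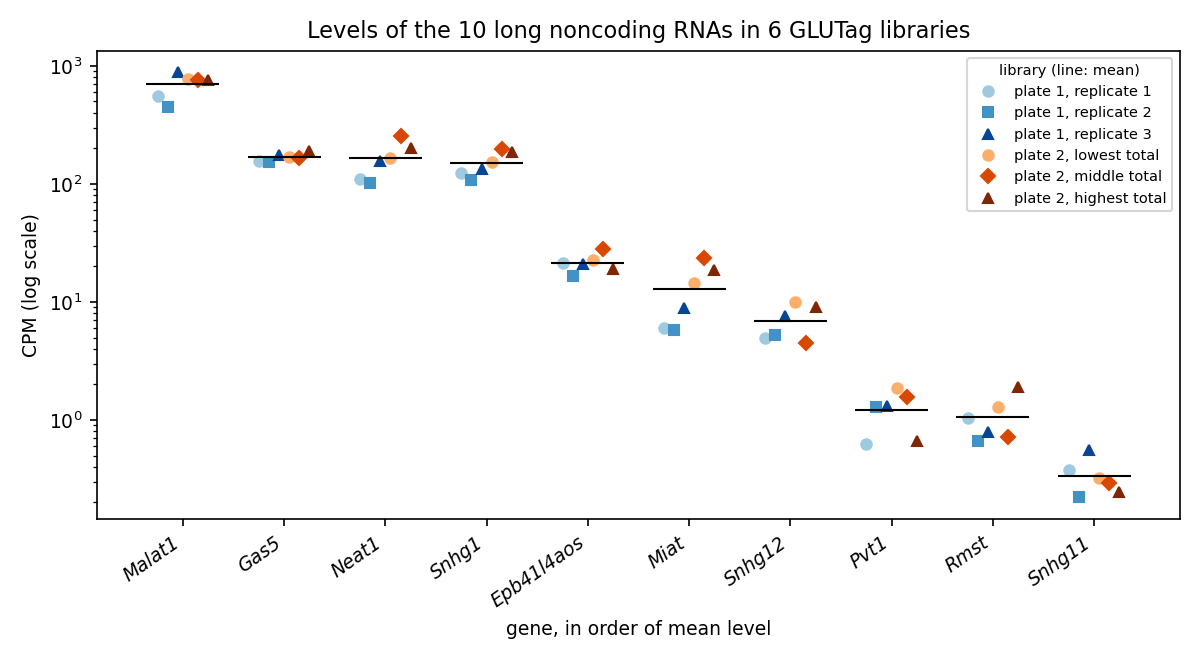
Level of each of the 10 RNAs in CPM on a log axis, with 1 point for each of the 6 libraries and a line at their mean. Malat1 stands alone near 697 CPM, Gas5, Neat1 and Snhg1 lie together between 150 and 169 CPM, and Pvt1, Rmst and Snhg11 lie near or below 1 CPM.

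Miat, a long nuclear RNA expressed in neurons and heart, lies at chr5:112213228-112229395 on the minus strand (ENSMUSG00000097767). Its level in plate 1 was 6.04, 5.74 and 8.93 CPM in replicates 1, 2 and 3. In plate 2 it was 14.6, 23.5 and 18.7 CPM in the libraries of lowest, middle and highest total. The plates did not overlap, and the highest library held 4.09 times the lowest. Its mean was 12.9 ± 7.25 CPM (SD, n = 6), and its coefficient of variation of 56.1% lay at the 99.5th percentile of the 8658 genes whose mean reached 10 CPM. This variation is of CPM over the column total, without further scaling between the plates. The RNA-binding splicing regulators Celf1 and Qk stood at 174 ± 32.6 and 63.6 ± 14.2 CPM.

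Rmst, an RNA of neural progenitors known to bind the transcription factor Sox2, spans chr10:92071037-92165170 on the minus strand (ENSMUSG00000112117). It gave 15 to 70 counts a library, or 1.07 ± 0.477 CPM (SD, n = 6), with the highest value of 1.92 CPM in the plate 2 library of highest total. Sox2 had 0 counts in 6 of 6 libraries, which allows at most 3 counts in each. The 2 microRNA genes inside Rmst, Mir135a-2 and Mir1251, had no count, but microRNAs carry no poly(A) tail and these libraries do not measure them.

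Gas5 was the most abundant of the 5 snoRNA host genes among the members and the least variable of the 10 RNAs. It lies at chr1:161034422-161038539 on the plus strand (ENSMUSG00000053332) and is known to accumulate when growth stops. Its level in plate 1 was 157.8, 154.2 and 176.3 CPM in replicates 1, 2 and 3, and in plate 2 it was 169.5, 165.7 and 189.3 CPM in the libraries of lowest, middle and highest total. The plates overlapped, and the highest library held 1.23 times the lowest. The mean was 169 ± 12.8 CPM (SD, n = 6), and the coefficient of variation of 7.59% lay at the 4.84th percentile of these 8658 genes. That percentile is of CPM without further scaling. On that scale the edgeR log2 fold change of plate 2 over plate 1 was 0.30 for the median gene and 0.10 for Gas5. Zbtb37, which overlaps the start of Gas5 on the opposite strand, gave 69 to 203 counts a library (mean 4.98 CPM), against 3490 to 6908 counts for Gas5. Whether the counting used strand is not given in the sources used here.

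Snhg1 (chr19:8723475-8726443, plus strand, ENSMUSG00000108414) hosts a group of box C/D snoRNAs. It stood at 123.5, 107.9 and 133.6 CPM in replicates 1, 2 and 3 of plate 1 and at 153.1, 196.4 and 188.3 CPM in the plate 2 libraries of lowest, middle and highest total. As for Neat1 and Miat, each plate 2 library lay above each plate 1 library in CPM over the column total, which was so for 35.2% of all genes tested. The mean was 150 ± 35.7 CPM (SD, n = 6).

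Epb41l4aos (chr18:33794892-33795986, plus strand, ENSMUSG00000087590) is a short spliced RNA just beyond the 3′ end of the protein-coding gene Epb41l4a, which lies on the opposite strand. It stood between 16.6 and 28.3 CPM, with a mean of 21.5 ± 3.94 CPM (SD, n = 6), against 4.93 ± 1.20 CPM for Epb41l4a. Snhg12 (chr4:132308623-132311024, plus strand, ENSMUSG00000086290) hosts snoRNAs of both classes. Its level was 4.96, 5.30 and 7.66 CPM in plate 1 and 10.0, 4.50 and 9.02 CPM in the plate 2 libraries of lowest, middle and highest total. The library of middle total was thus the lowest of all 6 for Snhg12 and the highest of all 6 for Epb41l4aos, Snhg1, Neat1 and Miat.

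Snhg11 (chr2:158375638-158386145, plus strand, ENSMUSG00000044349), a host gene known from neurons, was close to the floor. It gave 5 to 12 counts a library and 0.336 ± 0.123 CPM (SD, n = 6), the lowest mean of the 10. The annotation used here types it as protein coding, so that it has no rank among the long noncoding genes. Pvt1 (chr15:62037986-62378096, plus strand, ENSMUSG00000097039) gave 15 to 52 counts a library and 1.21 ± 0.488 CPM. Its neighbour Myc, a transcription factor of cell growth, stood at 0.603 ± 0.401 CPM (SD, n = 6), so both were low in these cells.

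Within the spans of the members lie 26 annotated snoRNA genes, namely 10 in Gas5, 8 in Snhg1, 5 in Snhg12, 2 in Snhg11 and 1 in Epb41l4aos. Snord80 in Gas5 and Snora16a in Snhg12 are each annotated as 2 genes over nearly the same bases, and each entry is counted. Of these, 25 had 0 counts in all 6 libraries, whereas their host transcripts in Gas5 and Snhg1 gave at least 3490 and 2441 counts in each library. The exception was Gm23639, in an intron of Epb41l4aos, with 8, 2 and 1 counts in plate 1 and 2, 56 and 0 counts in the plate 2 libraries of lowest, middle and highest total. Of 1364 snoRNA genes in the whole table, 1239 were at 0 in all libraries. snoRNAs are known to carry no poly(A) tail and these libraries start from oligo(dT) capture, so a 0 here is no measure of the level of a snoRNA.

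As examples, 3 of the snoRNAs inside host genes are printed, chosen because they hold the motifs of their class, which are in capitals. Box C/D RNAs were searched for TGATGA within the first 25 bases and CTGA within the last 25 bases, and box H/ACA RNAs for ACA placed 3 bases before the end. All letters were searched on the RNA strand, and 20.7% and 18.3% of the 1507 annotated snoRNA transcripts held the C/D pair and the ACA motif. Of the 26 snoRNA genes annotated within the members, with the doubled entries of Snord80 and Snora16a counted, 15 held the C/D pair, 5 the ACA motif, 1 of them both, and 7 neither.
Snord47, in Gas5, chr1:161038082-161038158, plus strand: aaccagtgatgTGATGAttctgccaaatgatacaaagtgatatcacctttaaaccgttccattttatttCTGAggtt
Snord99, in Snhg12, chr4:132310691-132310764, plus strand: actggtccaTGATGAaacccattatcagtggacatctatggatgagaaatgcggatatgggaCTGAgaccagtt
Snora61, in Snhg12, chr4:132310240-132310369, plus strand: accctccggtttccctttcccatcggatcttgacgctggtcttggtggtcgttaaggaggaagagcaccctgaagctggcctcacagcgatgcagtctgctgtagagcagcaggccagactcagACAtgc

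The order of mean levels was Malat1, Gas5, Neat1, Snhg1, Epb41l4aos, Miat, Snhg12, Pvt1, Rmst and Snhg11. Of the 9 neighbouring pairs in this order, 6 kept 1 direction in 6 of 6 libraries (exact two-sided sign-flip permutation test, p = 0.03125, adjusted p = 0.0469 over 9 pairs). The order was taken from these same values, so the test is no independent support for it. This p is the smallest that 6 libraries allow, and the adjusted p is under 0.05 only because 6 pairs share it. Gas5 and Neat1 were not separated, with a difference of 0.10 ± 0.44 on the log2(CPM + 1) scale (SD, n = 6; exact adjusted p = 0.668). Gas5 was the higher in 4 of 6 libraries, and its mean difference from Neat1 was 0.43 in plate 1 and -0.22 in plate 2. Neat1 and Snhg1 differed by 0.09 ± 0.20 (exact adjusted p = 0.402) and Pvt1 and Rmst by 0.10 ± 0.55 (exact adjusted p = 0.688). A p above the threshold does not show that the levels of a pair are equal. Rmst and Snhg11, which kept their direction in 6 of 6 libraries, differed by 0.61 ± 0.36 at a pseudocount of 1 CPM, a size that depends on the pseudocount, as it was 1.38 at 0.1 CPM and 0.18 at 5 CPM. The ratio of Epb41l4aos to Miat fell to 1.02 in the plate 2 library of highest total. That of Miat to Snhg12 was 1.22, 1.08 and 1.16 in replicates 1, 2 and 3 of plate 1 and 5.22 in the plate 2 library of middle total. Without that library the mean difference between Miat and Snhg12 was 0.40, against 0.70 with all 6.

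Among genes of a long noncoding type the members were a small share of the reads. All 10 together took 0.123 ± 0.0251% of the counts of a library, while all genes of a long noncoding type took 9.74 ± 3.86%. Bc1, a short neuronal RNA made by RNA polymerase III, took most of this, with 9.74% to 12.0% of the counts in plate 1 and 3.44% to 4.77% in plate 2. Without Bc1 the long noncoding genes took 2.41 ± 0.351% (SD, n = 6). Malat1 followed Bc1, Gm42418, Gm17494 and BC051077 in the order, and the next ranks were held by Gm44044, Gm42653, Gm13075, Ftx and Snhg9. Gas5, Neat1 and Snhg1 ranked 18th, 19th and 21st, Epb41l4aos 115th, Miat 179th and Snhg12 289th. Pvt1 and Rmst ranked 956th and 1040th, outside the 728 long noncoding genes with at least 1 CPM in each library.

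**Figure D2:**
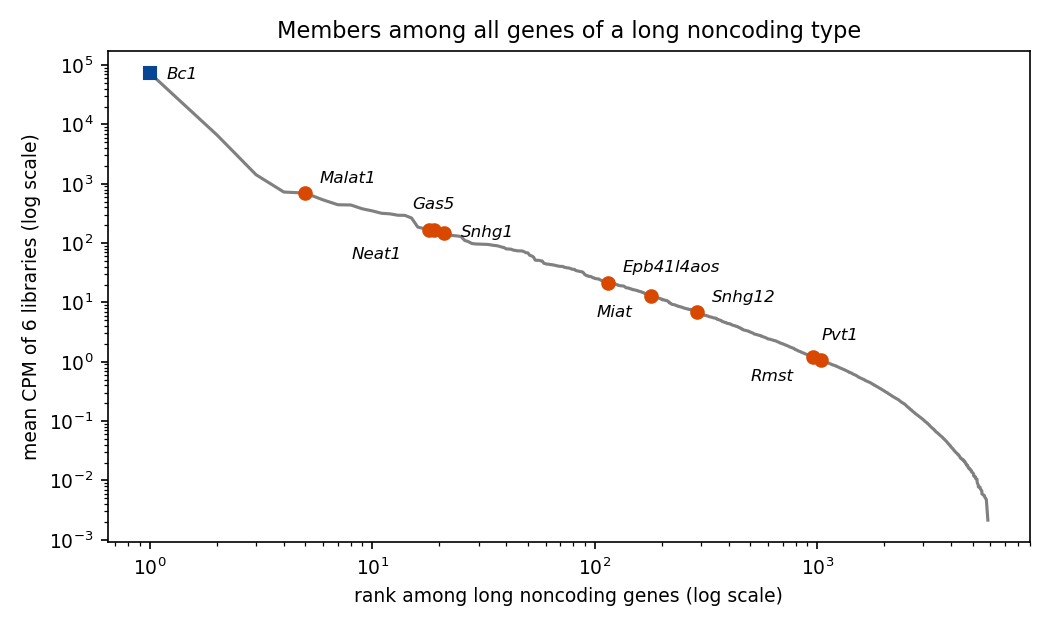
Mean CPM of the genes of a long noncoding type against their rank, both on log axes, for the 5840 such genes with any count; orange points are 9 members and the blue square is Bc1. Malat1 is 5th, Gas5, Neat1 and Snhg1 lie close together at ranks 18, 19 and 21, and Pvt1 and Rmst lie at ranks 956 and 1040.

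Members differed in how their level moved over the libraries. Neat1, Miat and Snhg1 moved together, with a Pearson r of log2(CPM + 1) between 0.961 and 0.977 for the 3 pairs, as a description over 6 libraries that share their totals and their plates. Malat1 followed them less (r = 0.774 with Neat1), since it was highest in replicate 3 of plate 1. Gas5 and Epb41l4aos had r = 0.0645. The genes most like Neat1 were Mlxipl (r = 0.998 on the log2(CPM + 1) scale), Plekha6 (r = 0.996) and Tmem41a (r = 0.996), and 657 of 8657 genes had r above 0.9 with it, so that this likeness was common. For Malat1 they were Pdzd11, Eno1 and 2700097O09Rik, each with r = 0.98 and among 40 genes above 0.9. The counts of Eno1 are uncertain because near-identical copies of this glycolytic gene exist. For Gas5 they were Zkscan3 (r = 0.990), Chd6 (r = 0.982) and Gm17066 (r = 0.971), among 91 genes above 0.9.

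**Figure D3:**
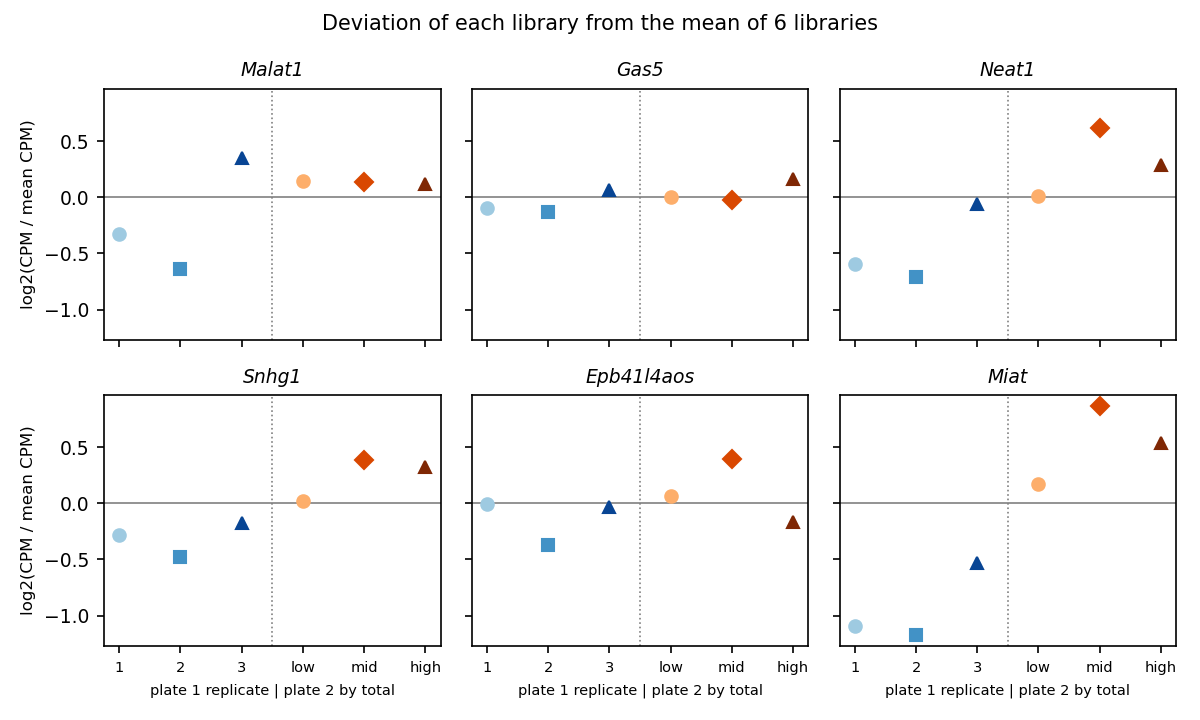
Log2 ratio of the CPM in each library to the mean CPM of 6 libraries, for the 6 members whose mean reached 10 CPM; plate 1 replicates stand left of the dotted line and plate 2 libraries, by total, right of it. Gas5 stays near 0, Neat1, Snhg1 and Miat are all highest in the plate 2 library of middle total, and Malat1 is highest in replicate 3 of plate 1.

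The other snoRNA host genes gave a wide range of levels. Of the 16 listed, 14 were matched to a row, and their means ran from 1.52 ± 0.624 CPM for Rian to 349 ± 80.0 CPM for Snhg9 (SD, n = 6), with a median of 27.1 CPM. Gas5 and Snhg1 would follow directly after Snhg9 in that order, and Snhg11 would stand below all of it. The library of middle total in plate 2 was the highest of 6 for 7 of the 19 host genes and the lowest for 7. Snhg6 had 1.81 CPM there against 25.7 to 43.1 CPM in the other 5 libraries, and Snhg8 had 17.5 CPM against 98.4 to 127 CPM. Snhg12 moved the same way, by a difference of -0.94 in log2(CPM + 1) from the mean of the other 2 libraries of its plate, while Snhg1 and Epb41l4aos moved by 0.20 and 0.42. What sets this library apart was not tested.

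**Figure D4:**
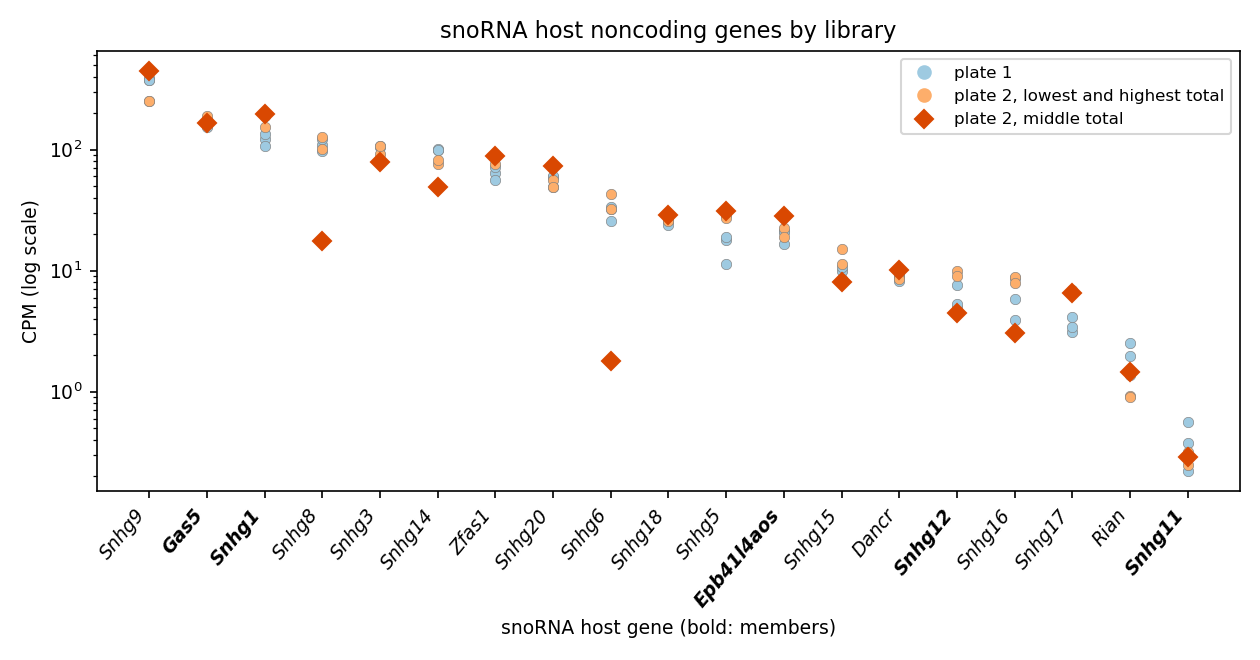
CPM on a log axis of 19 snoRNA host noncoding genes in order of mean level, with 1 point per library; members are in bold, and diamonds mark the plate 2 library of middle total. That library falls far below the others for Snhg8 and Snhg6, is lowest for Snhg12, and is highest for Snhg9, Snhg1 and Epb41l4aos.

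The only grouping in the design is the plate with its passage, and the comparison asks how far the members vary between these cultures. No member passed the test between the plates. With edgeR's quasi-likelihood test and Benjamini-Hochberg adjustment, 9 of the 10 members had enough counts to be tested and 0 had an adjusted p under 0.05, where 0.185% of 15669 genes were called. In edgeR 2 members, Miat and Neat1, had an unadjusted p under 0.05, which held for 16.1% of all genes tested. DESeq2 called 1 member, Miat, and 3.80% of 13919 genes. Snhg11 fell below the filter on low counts.

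Miat had the largest difference, a log2 fold change of 1.20 ± 0.23 (SE) for plate 2 over plate 1, with an adjusted p of 0.083 in edgeR. Without the plate 2 library of middle total it was 0.97 ± 0.19 with an adjusted p of 0.0050, in a fit that called 12.0% of 15894 genes, and over all alternatives its adjusted p lay between 3.35e-05 and 0.382. For Neat1 the log2 fold change was 0.49 ± 0.20 (adjusted p = 0.286) and for Snhg1 0.30 ± 0.13 (adjusted p = 0.318). Without the plate 2 library of middle total they were 0.28 ± 0.18 and 0.18 ± 0.11. These 3 genes were also those whose plates did not overlap in CPM, all of them higher in plate 2 (35.2% of all genes), while 4.00% of all genes were lower in each plate 2 library. That CPM carries no TMM factors. They were 0.933 in replicate 3 of plate 1 and 1.11 in the plate 2 library of lowest total. Between these libraries Neat1 rose from 158.0 to 166.3 CPM and Snhg1 from 133.6 to 153.1 CPM, by less than the factors differ. Divided by the factors, Neat1 and Snhg1 would overlap between the plates. With no scaling beyond the total, the median log2 fold change of all genes was 0.30, against 0.20 with totals without Bc1 and 0.03 after TMM scaling.

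The other members tested by edgeR lay near 0 or had wide errors. Gas5 was at -0.16 ± 0.11 (SE), Malat1 at 0.01 ± 0.21 and Epb41l4aos at -0.01 ± 0.18. Snhg12 was at 0.12 ± 0.30, Rmst at 0.38 ± 0.44 and Pvt1 at 0.06 ± 0.48, the last of these from 15 to 52 counts a library. Over the 9 members the median log2 fold change was 0.12, beside 0.03 over all genes tested.

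**Figure D5:**
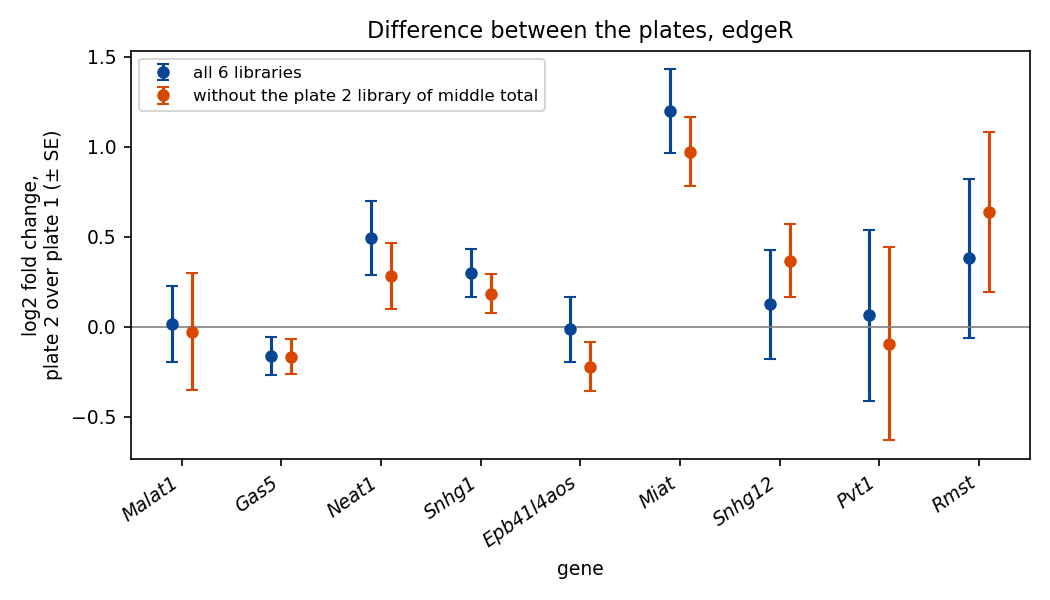
Log2 fold change of plate 2 over plate 1 for the 9 members tested, with bars of 1 standard error, from the edgeR fit on all 6 libraries (blue) and without the plate 2 library of middle total (orange). Miat is farthest from 0 in both fits, at 1.20 and 0.97, and Gas5 is the most tightly estimated of the 9 in both.

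The other host genes, the protein genes and the neighbours and partners listed beside these RNAs gave no call between the plates in edgeR either. Of the 14 other snoRNA host genes tested, 0 were called and 5 had an unadjusted p under 0.05, which 16.1% of all genes tested had. Snhg5, at 0.61 ± 0.19 (SE; adjusted p = 0.172), and Snhg17, at 0.64 ± 0.19, were the higher ones in plate 2. Snhg14, at -0.80 ± 0.18, Rian, at -1.10 ± 0.37, and Snhg3, at -0.35 ± 0.14, were lower. Of the 8 snoRNP proteins, which bind snoRNAs and carry out the modification, 0 were called and 2 had an unadjusted p under 0.05. Their levels ran from 43.4 ± 15.5 CPM (SD, n = 6) for Gar1, of the H/ACA particle, to 506 ± 56.6 CPM for Nop10. Among 7 paraspeckle proteins 0 were called and 0 had an unadjusted p under 0.05, and among 5 nuclear speckle proteins 0 were called and 2 had one. The 8 factors of nonsense-mediated decay, from Smg6 at 13.3 ± 2.67 CPM to Upf3b at 246 ± 12.3 CPM, also gave 0 calls, with 1 unadjusted p under 0.05. The 4 tested of the 5 neighbours and partners, Myc, Epb41l4a, Celf1 and Qk, gave 0 calls and 0 unadjusted p under 0.05. DESeq2 called 1 gene of these lists, the host gene Snhg14, with a log2 fold change of -0.82, where it called 3.80% of all genes.

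Of the 19 other long noncoding RNAs of known name, 12 were tested by edgeR and 0 were called. Among these 12, 4 had an unadjusted p under 0.05, which 16.1% of all genes tested had. DESeq2 called 1, Ftx, with a log2 fold change of -1.14, where it called 3.80% of all genes. Ftx stood at 141 CPM in the plate 2 library of middle total, against 318 and 354 CPM in those of lowest and highest total. Ftx, which lies in the X inactivation centre, was the highest of them at 379 ± 138 CPM (SD, n = 6), and Sox2ot and Dlx6os1 had no count. Among the 10 most abundant long noncoding genes, Bc1 and Gm42418 passed the edgeR test, which called 0.185% of all genes tested. Both were lower in plate 2, with log2 fold changes of -1.60 ± 0.19 (SE; adjusted p = 0.0209) and -1.12 ± 0.13 (adjusted p = 0.0216). Neither call held without replicate 1 of plate 1 or without the plate 2 library of lowest total, where edgeR called 0 genes.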

How the data were processed

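The 10 members and the lists set beside them were chosen with earlier results of these data known. Per the methods and the submitters' processing notes, the authors trimmed the reads with Trim Galore 0.6.4 and assigned them with Salmon 1.5.1 to GENCODE M23 transcripts with decoys of GRCm38, without length correction, which gave the expected counts that were deposited for each gene, without normalization. Symbols, positions and transcript sequences are from GENCODE M21 on GRCm38, in which 54107 of 54281 identifiers were found. CPM was the count over the column total of each library. The fit of plates, first tested on simulated data, used edgeR 4.0.16 on whole-number counts after rounding, with TMM factors, filterByExpr and the robust quasi-likelihood test at an adjusted p of 0.05. Its standard errors are the log2 fold change over the root of F. Differences between members were log2 ratios of CPM + 1 within a library, with an exact sign-flip test. DESeq2 1.42.0, other scalings, filters, pseudocounts and omission of each library were the alternatives. Named were all members, the 10 most abundant long noncoding genes, the highest and lowest of each list, overlapping genes with more than 3 counts and the 3 genes most like Malat1, Neat1 and Gas5. Of the genes this rule names, 1 is not reported here. A few others (Nono, Sfpq, Snhg3, Snhg5, Snhg6, Snhg8, Snhg14, Snhg17, Jpx, Kcnq1ot1, Xist, Airn, Celf1 and Qk) were chosen after their values were seen. Intervals of the tests cover the spread between wells. Python 3.11.15, scipy 1.17.1 and R 4.3.3 were used.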

Additional observations from a re-analysis of the deposited data

How the results depend on the processing

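No paired analysis was possible because no replicate number of the labels occurs in both plates, and the numbers within each plate in the column names tie to no shared culture, animal or day. The number of genes called between the plates was 29, and it was 529 with DESeq2, 1461 with no scaling beyond the total, 545 with no filter on low counts, 61 with totals without Bc1 (chosen after seeing the data) and between 0 and 1911 with 1 library left out, the 1911 arising without the plate 2 library of middle total. Members called were 0, against 1 with DESeq2 (Miat), 2 with no scaling (Miat and Snhg1), 1 with no filter (Miat) and 0 to 1 with 1 library left out; the cause was not tested. The direction turned in at least 1 alternative for Malat1, Gas5, Epb41l4aos, Pvt1, Snhg12 and Rmst, and in none for Miat, Neat1 and Snhg1. Malat1, at 0.01, was -0.0039 with DESeq2, -0.0063 with RLE size factors and between -0.17 and 0.32 with 1 library left out. Gas5, at -0.16, was 0.10 with no scaling and 0.0047 with totals without Bc1. Epb41l4aos, at -0.01, was 0.25 with no scaling, 0.0032 with no filter, 0.15 without Bc1 and between -0.22 and 0.11 with 1 library left out. With 1 library left out, Neat1 lay between 0.28 and 0.69 and Snhg1 between 0.18 and 0.41, each lowest without the plate 2 library of middle total, while Pvt1 lay between -0.22 and 0.40, Snhg12 between -0.075 and 0.37 and Rmst between -0.016 and 0.64. The 6 neighbouring pairs with 1 direction in 6 of 6 libraries, and the pair Malat1 and Neat1, kept their direction under every alternative run. This was fixed in advance, because the alternatives were other pseudocounts, omitted libraries and single plates. None of these can turn the mean of differences that all have 1 sign, so it is no measure of stability. Of 90 recomputed mean levels, 89 moved by less than 1 SD, the exception being Gas5 at 182 CPM over totals without Bc1. Most of the 90 left out 1 library of 6, which cannot move a mean by as much as 1 SD. That count is therefore largely fixed in advance. At 15 to 70 counts a library, the values of Rmst and Pvt1 are limited by depth.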

Other observations

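Of the other long noncoding RNAs of known name, 3 nuclear ones are given here, chosen after their values were seen, and other genes of that list moved otherwise. Kcnq1ot1, the antisense RNA of the imprinted Kcnq1 domain, stood at 36.6, 37.3 and 112 CPM in replicates 1, 2 and 3 of plate 1 and at 76.7, 89.4 and 92.1 CPM in the plate 2 libraries of lowest, middle and highest total. As for Malat1, replicate 3 of plate 1 was the highest library and replicates 1 and 2 the lowest. Xist, the RNA that coats the inactive X chromosome, stood at 38.0, 38.0 and 59.9 CPM in plate 1 and at 67.6, 88.8 and 80.8 CPM in plate 2. Airn, the antisense RNA of the imprinted Igf2r domain, stood at 29.8, 27.5 and 41.7 CPM and at 43.4, 53.4 and 54.0 CPM. In edgeR the log2 fold changes of plate 2 over plate 1 were 0.22 ± 0.46 (SE) for Kcnq1ot1, 0.54 ± 0.19 for Xist and 0.35 ± 0.17 for Airn, with adjusted p of 0.869, 0.217 and 0.370. By the same measure Ftx was at -1.12 and Jpx, its neighbour at the X inactivation centre, was at -0.23, neither with an adjusted p under 0.05.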
